A study of Homo sapiens with 6 samples.

Results

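Knockdown of the ubiquitin ligase RNF25 in SW839 renal carcinoma cells was accompanied by opposite movements within the target genes of bone morphogenetic protein (BMP) signaling. ID2 and the inhibitory SMAD gene SMAD6 were higher in all 3 knockdown libraries than in any control, ID3 was lower in all 3, and ID1 and SMAD7 overlapped between the groups. The ligand BMP4 was 1.34-fold higher, and the receptors BMPR1A and BMPR2 differed by less than the spread of the controls. Of 11 tested extracellular antagonists and modulators, NOG, GREM1 and FSTL3 were lower by the criteria given below. The other 8, among them the abundant FST and CRIM1, were not. Of all tested genes, 7.1% were lower by these criteria. The 10 genes described are ID1, ID2, ID3, ID4, SMAD6, SMAD7, BMP2, BMP4, BMPR1A and BMPR2, taken by symbol from a table of 30267 genes. They were selected from knowledge of the pathway and on the rise of ID2 in these same libraries. Their values are therefore given as a description, without p-values.

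The libraries were made from total RNA of SW839, an established human renal cell carcinoma line, after removal of ribosomal RNA. The shRNF25 group (3 libraries) carried a short hairpin RNA against RNF25 under a single hairpin name. The shControl group (3 libraries) carried the empty hairpin vector pLKO. Both were stable lines made by lentiviral infection and puromycin selection, described as biological triplicates without further detail on how the cultures were separated, so that the errors given measure the spread between these libraries.

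BMPs are secreted ligands of the TGF-β family. They bring together type I receptors such as BMPR1A and type II receptors such as BMPR2, which then phosphorylate SMAD1, SMAD5 and SMAD9. With SMAD4 these move to the nucleus, where the ID genes are among the best known direct targets. ID proteins have a helix-loop-helix but no DNA-binding region, so they hold basic helix-loop-helix factors such as TCF3 away from DNA. SMAD6 and SMAD7 are induced by the same signal and inhibit it. In the kidney, BMP signaling is known for its part in nephron development and in opposing TGF-β in the adult organ.

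Library depth was 18647460 to 19943154 reads assigned to genes. The values below are normalized counts, that is, reads divided by a size factor of the library. Reads were found for 25247 to 25683 genes in shControl and for 26581 to 27052 in shRNF25. RNF25 was measured first as a check of the labels, with 694, 534 and 536 in shControl replicates 1 to 3 and 214, 246 and 265 in the shRNF25 replicates. It fell by 1.27 on the log2 scale (SE 0.150, limma adjusted p = 0.000585), and the labels of all 6 libraries matched its level. RNF25 shares 260 exon bases with STK36 on the opposite strand, and STK36 rose from 678 to 928 in shControl to between 1154 and 1204 in shRNF25 (log2 fold change 0.59, limma adjusted p = 0.013). Of the markers of renal cell carcinoma, KRT8, KRT18 and PAX8 were found in every library. CA9 lay at 7.74, 12.3 and 50.7 in shControl and at most at 8.20 in shRNF25, and LHX1 was at 4.62 or lower in every library. CUBN (2.05 to 14.6) and GGT1 (3.81 to 11.9) were also low over the 6 libraries, and PAX2 and LRP2 were not listed.

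Markers of other cell types overlapped between the groups in sum, but single markers differed strongly. The summed endothelial markers (7 of 8 listed) ranged from 498 to 703 in shControl and from 498 to 652 in shRNF25, most of it PECAM1. Within them CDH5 had 73.0, 103 and 199 in shControl against 3.64, 8.31 and 5.72 in shRNF25 and was called lower (21.2-fold), and KDR was called higher (3.45-fold). The leukocyte markers (7 of 8) summed to 63.0 to 74.9 and 67.7 to 97.5, with ITGAM called higher, and the fibroblast markers (8 of 8) to 1114 to 1298 and 1003 to 1191, most of it COL1A1. COL3A1 had 5.53, 6.16 and 5.40 against 167, 127 and 193 and was called higher (28.5-fold). The renal carcinoma markers (10 of 12) summed to 40521 to 51733 in shControl and 55811 to 59776 in shRNF25, most of it KRT8 and KRT18, with VIM called higher. The part of these markers in the results below was not tested. All libraries come from the SW839 line, and bulk RNA does not show whether such a difference lay in all of its cells or in a part of them.

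A gene was called higher or lower where its limma p, adjusted by Benjamini-Hochberg over the 16554 genes that reached 10 normalized counts in 3 libraries or more, was below 0.05 and its fold change was at least 1.5. By this measure 8.65% of tested genes were called higher and 7.1% lower in shRNF25, and for 42.5% the groups did not overlap. Of the 10 BMP pathway genes, 8 were tested, and BMP2 and ID4 lay under the minimum. The calls were higher for 2 (ID2 and SMAD6), lower for 1 (ID3) and neither for 5, and the groups did not overlap for 4 (ID2, ID3, SMAD6 and BMP4). The median log2 fold change was 0.21 over these 8 and -0.01 over all tested genes. Since the genes were chosen on this contrast, nothing is read from these shares.

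**Figure D1:**
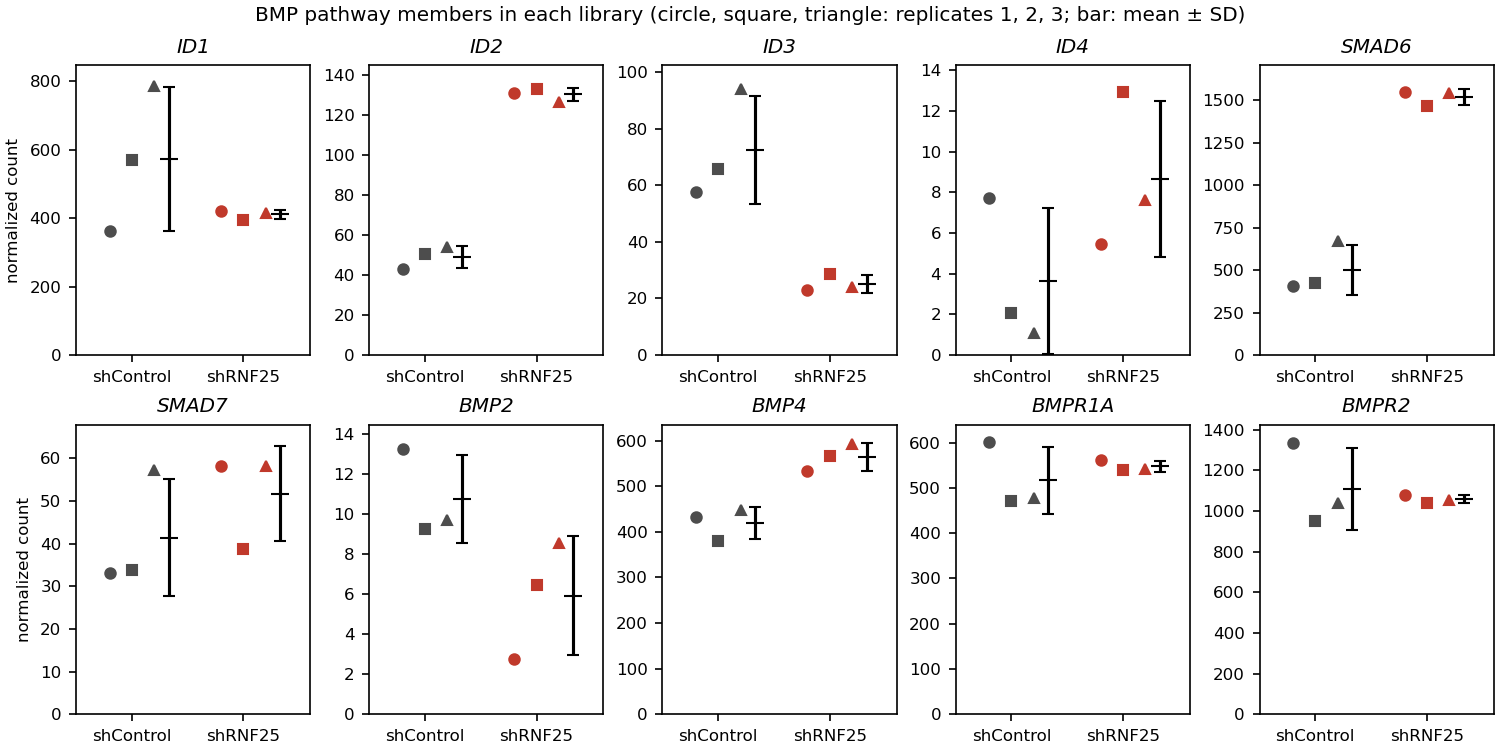
Normalized count (vertical axis, from 0) of each of the 10 genes in the shControl (grey) and shRNF25 (red) libraries. Circles, squares and triangles stand for replicates 1, 2 and 3 and the bar for the mean ± SD (n = 3). ID2 and SMAD6 lie above every control in all 3 knockdown libraries, ID3 lies below, and ID1, SMAD7, BMPR1A and BMPR2 overlap.

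The proximal promoters of the set were searched for short words, and windows of SMAD6, ID1 and BMPR2, each with a marked word, are shown. ID1 and BMPR2 were not called, so the windows shown do not bear on the opposite movements of ID2 and ID3. SMADs bind GTCTAGAC and the GC-rich word GGCGCC, and BMP target genes often carry them in enhancers. Windows from 250 bases before to 50 bases after each transcription start were taken from RefSeq (GRCh38.p14), where 9 of the 10 genes matched and BMP2 had no entry. Below are the 150 bases before the start in the SMAD6, ID1 and BMPR2 windows, 5′ to 3′, with these words or the TATA box TATAAA in capitals. The windows lie at chr15:66702086-66702235 (plus strand, 8 bases inside the annotated 5′ UTR), chr20:31605139-31605288 (plus strand, 6 bases inside it) and chr2:202376177-202376326 (plus strand, outside annotated exons).
SMAD6: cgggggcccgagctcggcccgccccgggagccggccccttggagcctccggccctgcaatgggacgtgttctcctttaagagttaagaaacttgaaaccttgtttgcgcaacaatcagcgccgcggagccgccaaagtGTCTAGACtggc
ID1: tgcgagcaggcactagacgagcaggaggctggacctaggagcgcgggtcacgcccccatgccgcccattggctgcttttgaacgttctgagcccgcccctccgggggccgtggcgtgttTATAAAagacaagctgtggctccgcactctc
BMPR2: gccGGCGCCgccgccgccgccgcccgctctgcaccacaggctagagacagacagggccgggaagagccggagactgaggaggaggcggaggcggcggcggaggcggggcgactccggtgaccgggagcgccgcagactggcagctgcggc
GTCTAGAC, read on both strands, was found in the SMAD6 window alone among the 9 genes, beginning 12 bases before the start. It occurs in 71 of 35116 promoter windows (0.202%). GGCGCC, also read on both strands, was found in the BMPR2 window, 147 bases before the start, and in the first BMP4 window, 232 bases before and 2 bases after the start. It occurs in 19.2% of all windows. TATAAA on the gene's own strand began 31 bases before the start in ID1, 29 in ID4 and 35 in the second SMAD7 window, and occurs in 7.33% of windows. The E-box CANNTG, the word bound by the partners of ID proteins, occurs in 68.7% of windows. It was found in the windows of ID2, ID4, SMAD6, SMAD7, BMP4, BMPR1A and BMPR2. The NF-κB consensus occurs in 5.91% of windows and was in none of these. The windows of ID2 and ID3 held none of the marked words. None of the marked words overlapped another. A match is a run of letters in a window, not a bound site.

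Among the ligands, BMP4 was the abundant member. BMP4 (chr14:53949736-53958761, minus strand, GENCODE 29 on GRCh38, as for the positions below) had normalized counts of 432, 379.6 and 448 in shControl and 533, 566 and 594 in shRNF25. Every knockdown library lay above every control. The group means were 419.9 ± 35.8 and 564 ± 30.4 (SD, n = 3). The log2 fold change was 0.43 (SE 0.120, 95% interval 0.16 to 0.70), below the 1.5-fold limit, so BMP4 was not called. BMP2 (chr20:6767664-6780280, plus strand), the closest relative of BMP4, was at 13.3, 9.23 and 9.71 in shControl and 2.73, 6.46 and 8.58 in shRNF25. These are 9 to 12 reads against 3 to 9, under the minimum for testing. The groups did not overlap, but the unfiltered log2 fold change of -0.85 had an interval from -1.82 to 0.12. Per kilobase of exon, BMP4 stood at 136 and 183 in the group means of shControl and shRNF25, and BMP2 at 2.98 and 1.65.

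The receptors varied least of the 10 genes among the knockdown libraries, with coefficients of variation of 2.12% for BMPR1A and 1.81% for BMPR2. BMPR1A (chr10:86756601-86932838, plus strand) had values of 601, 469.9 and 477 in shControl and 560.4, 539 and 541 in shRNF25. Its log2 fold change was 0.09 (SE 0.129, 95% interval -0.20 to 0.38). In BMPR1A, 12.4% of 50-base words of the transcript also occur in other genes, so part of its reads may be shared with copies. BMPR2 (chr2:202376936-202567751, plus strand) had values of 1335, 950.1 and 1039 against 1077, 1039 and 1055, a log2 fold change of -0.05 (SE 0.137, 95% interval -0.36 to 0.26). Both knockdown ranges lay inside the control range, with shControl replicate 1 the highest library for each. The sign of the BMPR2 difference turned without that library (0.089).

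The inhibitory SMADs parted. SMAD6 (chr15:66702228-66782848, plus strand) had 407, 423 and 672 in shControl and 1551, 1467 and 1541 in shRNF25. All 3 knockdown libraries lay more than 2-fold above the highest control. The group means were 501 ± 149 and 1519.9 ± 45.6 (SD, n = 3), and the log2 fold change was 1.64 (SE 0.183, 95% interval 1.23 to 2.05). SMAD7 (chr18:48919853-48952052, minus strand), which directs SMURF ligases to the receptors, had 33.2, 33.9 and 57.2 against 58.3, 38.8 and 58.1. Its groups overlapped, and the log2 fold change of 0.34 (SE 0.276) had an interval from -0.29 to 0.96. Per kilobase of exon, the SMAD6 to SMAD7 ratio was 7.21, 7.34 and 6.91 in shControl and 15.6, 22.2 and 15.6 in shRNF25. The ratio was thus nearly the same in the 3 controls, in which both genes were highest in replicate 3, and higher in every knockdown library.

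Of the 4 ID genes, ID2 was called higher and ID3 lower, ID1 was not called and ID4 was too low to test. ID1 (chr20:31605283-31606515, plus strand) had 364, 570.5 and 786 in shControl and 422, 395 and 417 in shRNF25. The controls spanned the knockdown values, with a coefficient of variation of 36.8% against 3.42%. The log2 fold change was -0.41 (SE 0.238, 95% interval -0.95 to 0.13), and ID1 was not called. Without shControl replicate 1, its lowest library, the log2 fold change was -0.70 and ID1 was called lower. Without shControl replicate 3, its highest library, the log2 fold change was -0.15 and ID1 was not called.

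ID2 (chr2:8678845-8684453, plus strand) had 43.1, 50.3 and 54.0 in shControl and 131, 133 and 127 in shRNF25. Every knockdown library was more than 2-fold above every control, with 39 to 50 reads behind the control values and 133 to 144 behind those of the knockdown. The mean was 49.1 ± 5.52 in shControl and 130.3 ± 3.20 in shRNF25 (SD, n = 3), and the log2 fold change was 1.40 (SE 0.167, 95% interval 1.02 to 1.77). ID2-AS1 overlaps 38 exon bases of ID2 (1.72%) on the opposite strand. ID2-AS1 had values of 11.1, 11.3 and 3.24 in shControl and 11.8, 12.0 and 13.3 in shRNF25.

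ID3 (chr1:23557918-23559794, minus strand) had 57.5, 65.7 and 93.9 in shControl and 22.8, 28.6 and 23.8 in shRNF25. All knockdown values were below the lowest control. The mean was 72.3 ± 19.1 in shControl and 25.1 ± 3.12 in shRNF25 (SD, n = 3), and the log2 fold change was -1.47 (SE 0.239, 95% interval -2.01 to -0.93). ID4 (chr6:19837386-19840684, plus strand) was at 7.74, 2.05 and 1.08 in shControl and 5.47, 12.9 and 7.63 in shRNF25, from 1 to 14 reads. The groups overlapped, and the unfiltered log2 fold change of 1.27 had an interval from -0.01 to 2.55.

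Scaled to exon length, ID1 made up most of the ID transcripts in every library. The summed ID level was 349.8, 523 and 714 normalized counts per kilobase in shControl and 417, 402 and 412 in shRNF25, so the sums overlapped. The ID2 share of the sum was 5.59%, 4.36% and 3.43% in shControl and 14.3%, 15.0% and 14.0% in shRNF25. The ID3 share was 9.14%, 6.99% and 7.31% against 3.04%, 3.96% and 3.22%. ID3 transcripts outnumbered those of ID2 in each control and the order was turned in each knockdown library. The ratio of ID2 to ID3 per kilobase was 0.611, 0.624 and 0.468 in shControl and 4.69, 3.79 and 4.34 in shRNF25. The ID1 share was 84.3% to 89.2% in shControl and 79.7% to 82.1% in shRNF25.

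**Figure D2:**
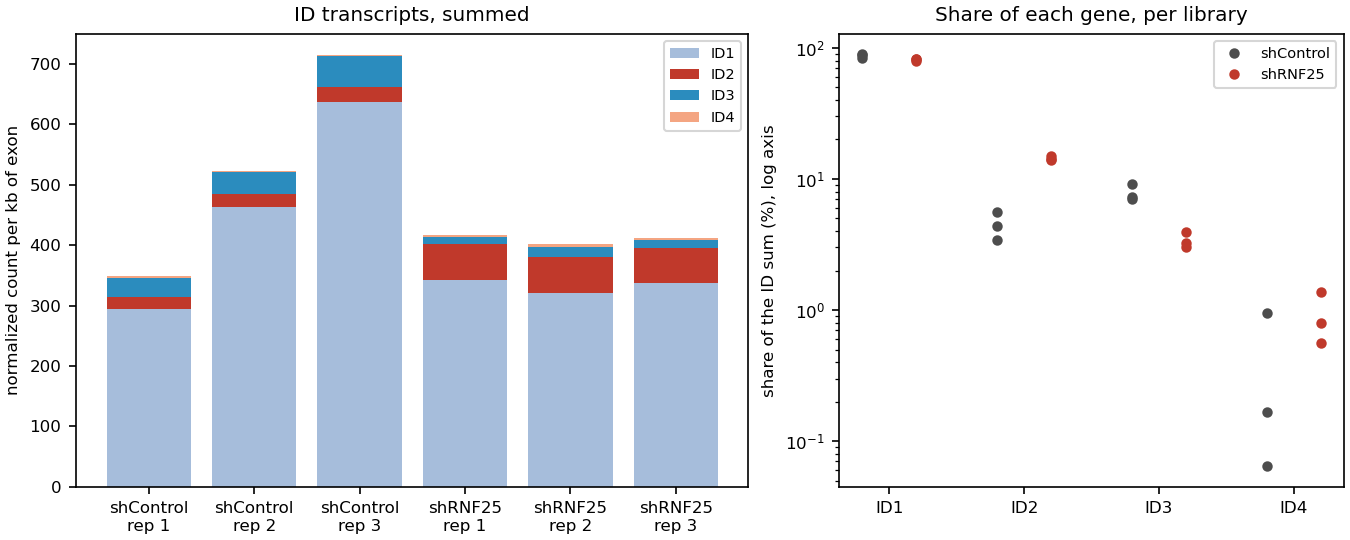
Left, ID1, ID2, ID3 and ID4 stacked as normalized counts per kilobase of exon in each library. Right, the share of each gene in that sum in percent on a log axis, with a point for each library (shControl grey, shRNF25 red). ID1 makes up most of each bar, and the shares of ID2 (3.43% to 5.59% against 14.0% to 15.0%) and ID3 move in opposite directions.

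In the controls, these targets had their highest value in the same library. shControl replicate 3 was the highest control for all 5 of ID1, ID2, ID3, SMAD6 and SMAD7, and it was the highest control for 31.6% of all tested genes. Without that library the log2 fold change had the same sign and the same call for each of these 5 genes, but its size moved from -0.41 to -0.15 for ID1 and from 0.34 to 0.59 for SMAD7, neither of which was called.

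**Figure D3:**
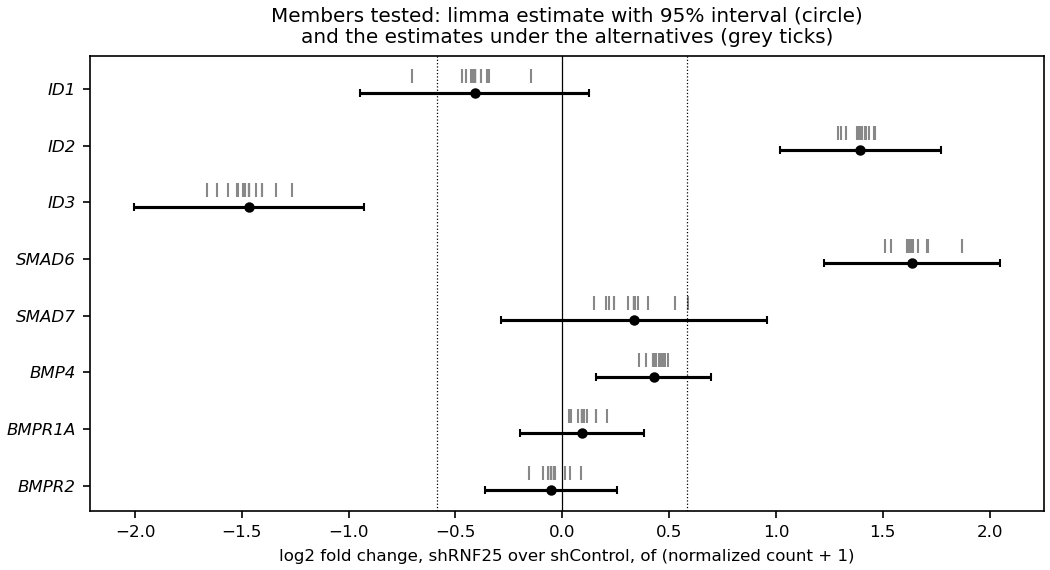
Log2 fold change of shRNF25 over shControl for the 8 tested genes on the scale of log2(normalized count + 1). Circles with bars are limma estimates with 95% intervals, grey ticks are estimates under the alternative settings, and dotted lines mark the 1.5-fold limit. ID2, SMAD6 and ID3 stay beyond the limit in every setting, and the BMPR2 ticks fall on both sides of 0.

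The tested genes whose profile over the 6 libraries was nearest to that of ID2, by Euclidean distance between centred log2 values, were SAXO2 (0.172), H3C10 (0.186), PCBP1-AS1 (0.192), PCDHB9 (0.198) and AC073349.2 (0.228). SAXO2 and PCDHB9 rested on 9 to 12 reads in each control, and H3C10 and PCDHB9 belong to families of near-identical genes whose reads may be split. SMAD6 was the nearest of the 10 genes, at 0.520 and rank 169, and ID3 was far from ID2 at 3.53. The distance includes the difference between the groups, on which ID2 was selected. It therefore partly restates the fold changes and is not separate evidence of a shared profile.

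The rest of the pathway was followed in 90 other genes, of which 75 were in the table and 55 were tested. Of these, 4 were called higher and 10 lower, against 8.65% and 7.1% of all genes, and the median log2 fold change was -0.10. The lists are grouped by role below, and each count comes without a test of the list. The same shares of all tested genes stand beside the count of every list, and for 42.5% of all tested genes the groups did not overlap.

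Of 15 other ligands, 6 were tested, with a median log2 fold change of 0.67. Of the 6, 3 were called higher and none lower, against 8.65% and 7.1% of all tested genes. BMP3, a family member known for opposing other BMPs, had 92.9, 81.1 and 135 in shControl and 269, 223 and 257 in shRNF25, a log2 fold change of 1.30 (SE 0.201, limma adjusted p = 0.00241). AMH, the anti-Müllerian hormone, had 82.9, 155 and 198 against 312, 309 and 329.8 (log2 fold change 1.21, SE 0.274, limma adjusted p = 0.0139). In both genes every knockdown library exceeded every control. The call of AMH was lost without any single shRNF25 replicate (limma adjusted p from 0.0527 to 0.0626). BMP8A rose from 13.3, 23.6 and 18.3 to 28.2, 36.9 and 43.8 (log2 fold change 0.96, limma adjusted p = 0.0437). BMP8A shares 36.8% of its 50-base words with its paralog BMP8B and 267 exon bases with PPIEL on the opposite strand, and its call was lost without shControl replicate 1 or 3 or any single shRNF25 replicate (limma adjusted p from 0.0566 to 0.189). BMP8B itself was not called, with 198, 231 and 218 against 166, 187 and 221. BMP6, named after its values were seen, was not called either, with 18.8, 13.3 and 23.7 against 9.11, 10.2 and 3.81. All 3 knockdown values of BMP6 lay below the controls (log2 fold change -1.23, SE 0.405, limma adjusted p = 0.0595). BMP7, the ligand most closely tied to kidney development, was at 0 to 1.11 in shControl and 1.82 to 4.62 in shRNF25.

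All 11 other receptors and co-receptors were in the table and 9 were tested, with a median log2 fold change of 0.32. Of the 9, 1 was called higher and 4 lower, against 8.65% and 7.1% of all tested genes. The type I receptor BMPR1B rose from 95.1, 116 and 128 to 166, 191 and 193 (log2 fold change 0.70, SE 0.164, limma adjusted p = 0.0161). Its call was lost without shControl replicate 1, where the log2 fold change was 0.58, and without any single shRNF25 replicate (limma adjusted p from 0.0517 to 0.0914). RGMA, a membrane-anchored BMP co-receptor, fell from 287, 228 and 227 to 105, 81.3 and 96.3 (log2 fold change -1.38, SE 0.167, limma adjusted p = 0.000679). The type II receptor ACVR2B fell from 208, 239 and 229 to 141, 123 and 121 (log2 fold change -0.81, SE 0.142, limma adjusted p = 0.00431). For these 3 genes the groups did not overlap, as for 42.5% of all tested genes. ACVRL1, a type I receptor best known from endothelium, lay at 12.2, 13.3 and 11.9 against 3.64, 4.62 and 6.67, which is 11 to 13 reads against 4 to 7. Its log2 fold change of -1.20 passed (limma adjusted p = 0.0367), but not without any single shRNF25 replicate (limma adjusted p from 0.0647 to 0.141). ACVRL1 reached the minimum for testing only through the controls, where it was high, and was not tested when a shControl replicate was left out. Its call is therefore not independent of the filter. The fourth lower gene was RGMB, named after its values were seen, whose -0.59 lay at the 1.5-fold limit (limma adjusted p = 0.00553). ACVR1, the most abundant of the list that was not called, had 585, 480.2 and 577 against 669.7, 705 and 675.

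Extracellular antagonists and modulators form one list, tested for 11 of 22 genes, with a median of -0.35. Of the 11, 3 were called lower and none higher, against 7.1% and 8.65% of all tested genes. Of the 11, 9 had a log2 fold change below 0, against 8478 of all 16554 tested genes. The list also holds modulators such as BMP1, TLL1 and KCP, all among those below 0, so these counts do not describe antagonists alone. NOG (noggin), which binds BMP ligands and keeps them from their receptors, fell from 1268, 1493 and 1077 to 831, 786 and 783 (log2 fold change -0.66, SE 0.133, limma adjusted p = 0.00792). All knockdown values lay below all controls. Without shControl replicate 2 the log2 fold change was -0.55, under the 1.5-fold limit. GREM1 (gremlin), another ligand trap, fell from 172, 125 and 92.8 to 34.6, 53.6 and 43.8 (log2 fold change -1.52, SE 0.259, limma adjusted p = 0.00374). FSTL3, which binds activins and some BMPs, fell from 1171, 1781 and 1838 to 778, 716 and 701 (log2 fold change -1.10, SE 0.171, limma adjusted p = 0.0025). The abundant FSTL1, a related secreted protein, had 7074, 7014 and 7836 against 5402, 5112 and 5006. Its log2 fold change of -0.50 (limma adjusted p = 0.00817) was under the 1.5-fold limit. Other abundant genes of the list, named after their values were seen, were not lower by these criteria. FST (follistatin) had a log2 fold change of 0.05 (95% interval -0.22 to 0.32) and CRIM1 of -0.08 (-0.30 to 0.15). TWSG1, a BMP-binding modulator, had 1681, 1456 and 1589.8 against 2187, 1949.5 and 2115, a log2 fold change of 0.40 under the 1.5-fold limit (limma adjusted p = 0.0257).

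Set against BMP4, the antagonists NOG and GREM1 were lower in every knockdown library than in any control. This order follows from the values above, since both fell and BMP4 rose without overlap of the groups, and it adds no separate result. Other genes of the list, such as FST and CRIM1, were not set against BMP4. Per kilobase of exon, NOG transcripts stood to those of BMP4 as 4.78, 6.41 and 3.92 in shControl and as 2.54, 2.26 and 2.15 in shRNF25. The ratio of GREM1 to BMP4 per kilobase was 0.0842, 0.0696 and 0.0437 in shControl and 0.0137, 0.0200 and 0.0156 in shRNF25. On this scale NOG lay above BMP4 in all 6 libraries. The length used is the union of all annotated exons, 3082 bases for BMP4 and 1892 for NOG. The longest coding transcript of BMP4 has 1917 bases and that of NOG 1892. The size of the ratios per kilobase, here and above, therefore rests on the length chosen. Proteins were not measured in these libraries.

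Of 13 intracellular transducers and regulators 12 were tested, and SMURF2 alone was called, with a median of 0.05 over the list. SMURF2, a ubiquitin ligase for BMP and TGF-β receptors and SMADs, fell from 5625, 3715 and 4133 to 2390, 2414 and 2359 (log2 fold change -0.89, SE 0.149, limma adjusted p = 0.00353). The receptor-regulated SMAD1, SMAD5 and SMAD9 and their partner SMAD4 were not called, with log2 fold changes of 0.14, -0.16, 0.57 and 0.33. FKBP1A, which keeps type I receptors inactive, had 10797, 10804 and 12392 against 8793, 8893 and 8769 and was under the 1.5-fold limit. It shares 36.8% of its 50-base words with other genes, among them pseudogenes.

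Of 12 other BMP-responsive genes, mostly transcription factors, 8 were tested, with 2 lower, none higher and a median of -0.35. RUNX2, the osteoblast transcription factor, fell from 1021, 621 and 879.6 to 341, 311 and 340.3 (log2 fold change -1.31, SE 0.177, limma adjusted p = 0.00122). MSX2, a homeobox repressor, fell from 76.3, 61.6 and 75.5 to 39.2, 34.2 and 44.8 (log2 fold change -0.84, SE 0.199, limma adjusted p = 0.017). The call of MSX2 was lost without shRNF25 replicate 1 or 2 (limma adjusted p = 0.0761 and 0.0924). JUNB, an AP-1 subunit, had 3783, 3797 and 5780 against 3093, 3254 and 3155 and was not called (log2 fold change -0.46, limma adjusted p = 0.0732). Of the 8 genes, 6 had a log2 fold change below 0, against 8478 of all 16554 tested genes.

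None of the 9 tested genes for basic helix-loop-helix factors or for regulators of ID protein stability (of 17 on the list) was called, and their median was -0.10. Of the 9, 8 had a log2 fold change below 0, against 8478 of all 16554 tested genes. TCF3, the most abundant, had 3034, 3326 and 3326 in shControl and 2702, 2806 and 2652 in shRNF25 (log2 fold change -0.25, SE 0.097, limma adjusted p = 0.103).

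**Figure D4:**
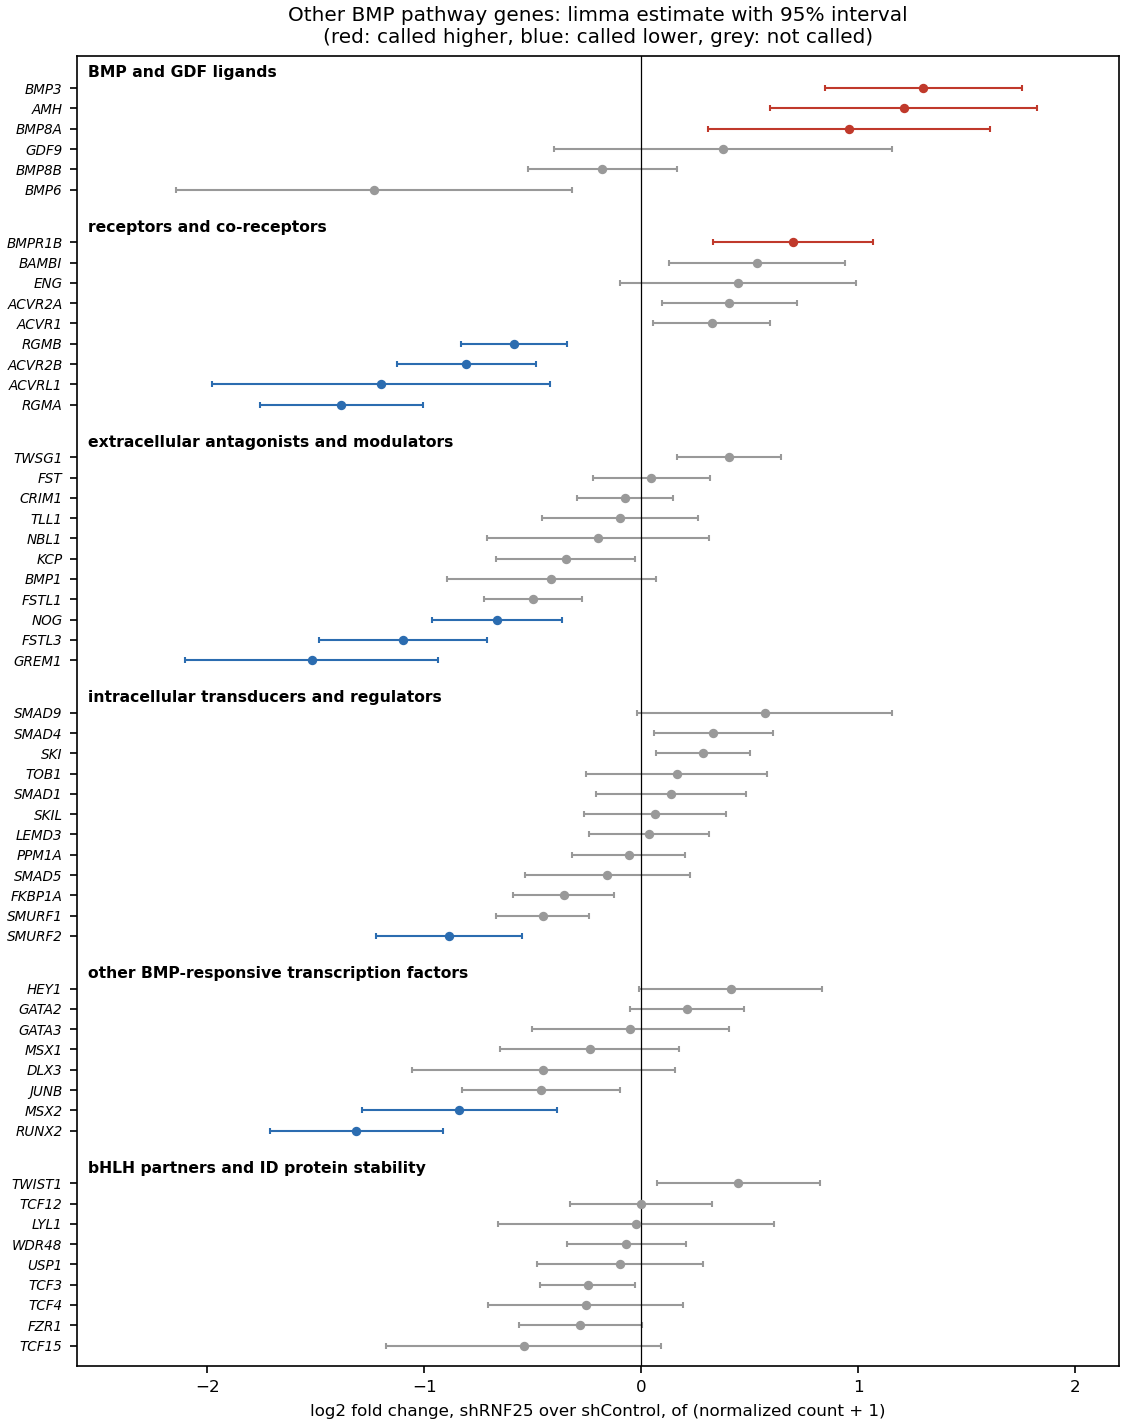
Log2 fold change of shRNF25 over shControl with limma 95% intervals for the 55 tested genes of the other pathway lists, on the scale of log2(normalized count + 1). Red genes were called higher (4), blue genes lower (10) and grey genes neither. The called ligands lie to the right of 0 and the called antagonists to the left.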

How the data were processed

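RNA-seq of 6 SW839 libraries was used. The controls' treatment text also names the shRNF25 plasmid, so groups rest on titles and genotype labels. The control libraries bear differently formed names, and any batch matching them and the knockdown effect cannot be told apart. The authors used a stranded kit with ribosomal depletion. The submitters' processing notes name fastp, HISAT2, HTSeq and GRCh38. The strand setting of counting is not given in the sources used here, so reads of antisense partners cannot be told apart. The authors deposited a signal per gene, reads divided by a library size factor. Whole reads were recovered for 100% of values (within 0.001 reads). On these reads, edgeR called 1525 genes higher and 1133 lower and DESeq2 1414 and 1220, against 1432 and 1175 in limma.

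Values were tested as log2(value + 1), which understates changes of low genes, with limma 3.58.1 (eBayes with a trend, no covariates, R 4.3.3) on genes at 10 or more in at least 3 libraries. Groups were compared over all 6 libraries with Benjamini-Hochberg adjustment. The limma errors use a common variance of both groups for each gene, drawn toward a trend over all genes. Library weights fitted by group were 0.402 for shControl and 2.49 for shRNF25, so the controls varied more than the common variance shows. Alternatives were pseudocounts of 5 and 0.5, no filter, a minimum of 50, quantile normalization, median-ratio rescaling on genes averaging 100 or more, edgeR 4.0.16 (quasi-likelihood, TMM), DESeq2 1.42.0, a replicate block, library weights by group, each library left out, and a fold change of at least 2. The scripts were tested on simulated data. The members and lists were chosen with earlier results of these data known. Named pathway genes are up to 4 called genes per list with the largest log2 fold change and the most abundant gene not called, with the 5 genes nearest to ID2. Positions are from GENCODE 29, matched by symbol.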

Additional observations from a re-analysis of the deposited data

How the results depend on the processing

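RNF25 and the directions and calls of ID2, SMAD6 and ID3 were the same under all 16 alternatives run on each. In this order, the log2 fold changes ranged from -1.34 to -1.15, 1.29 to 1.47, 1.51 to 1.87 and -1.66 to -1.27. The set was selected on the rise of ID2 in these same libraries. The repeats therefore describe the processing and are not separate evidence for the changes. With each library left out, 2 of the 10 genes were called higher each time and 1 to 2 lower, 2 being the count without shControl replicate 1, where ID1 was added. The pathway genes called higher numbered 4, between 1 and 4 with a library left out (2 without shControl replicate 1 and 1 when any single shRNF25 replicate was left out), and those called lower numbered 10, between 7 and 9. With a fold change of at least 2 they numbered 2 and 5. Over all genes the calls, 1432 higher and 1175 lower, fell to 898 and 987 with a minimum of 50, where fewer genes were tested, and to 597 and 783, 657 and 801, and 662 and 797 without shRNF25 replicates 1, 2 and 3. BMPR2, at -0.05, turned to 0.034 under quantile normalization, to 0.013 under the median ratio and, with a library left out, lay between -0.16 and 0.089, the last without shControl replicate 1. NOG was under the 1.5-fold limit also under quantile normalization (-0.58). ACVRL1 lost its call with no filter, under DESeq2 and under library weights, and BMP8A with no filter, quantile normalization and library weights. Same-numbered libraries of the groups deviated together by correlations of -0.06, -0.09 and 0.05 only. Differently numbered libraries had correlations from -0.14 to 0.18. These values show no sign of pairing by number, but with 3 libraries per group they cannot exclude it. With the replicate block the higher pathway calls numbered 4 and the lower 9, the lost call being ACVRL1 (limma adjusted p = 0.0677). Genes at under about 15 reads, among them BMP2, ID4 and ACVRL1, are limited by depth.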
